A study of Ceratopteris richardii with 9 samples.

Results

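The transcripts described here were lower in the root tip than in both the differentiated root and the shoot of the young Ceratopteris richardii sporophyte. Of the 28952 transcripts in the count table, 153 belonged to them. They were chosen by their CPM (a transcript's count divided by the total of its library, times 1000000) in the same 9 libraries that are described below. A member averaged at least 5 CPM in both the differentiated root and the shoot, and had a score of at least 4. The score divides the lowest of the 6 differentiated root and shoot libraries by the highest of the 3 root tip libraries, after 0.5 CPM is added to each. A limit of 200 members was set and was not reached. Because these values chose the members, their low level in the root tip is a description and carries no test.

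Ceratopteris richardii is a homosporous fern whose roots grow from an apical cell at the tip, which is capped on the outside and gives rise to the root tissues on the inside. Cells that leave this zone elongate and mature into epidermis, cortex, endodermis and vascular tissue. Leaves and stem carry out photosynthesis and transport, and share mature cell types such as xylem, phloem and ground tissue with the root. The comparison made here asks which transcripts the root without its tip and the shoot both held at a level well above that of the tip.

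All plants were of the Hn-n genotype and were sampled 45 days after fertilization. They came from 1 culture regime on C-Fern Medium, and no mutant or treatment was involved. The root tip (RT) was cut below the visible vascular strands. The differentiated root (DR, coded DT in the sample names) was the root without its tip. The shoot (SH) comprised young leaves with the stem, and the study states that the shoot apical meristem made up a small part of it. Below, mature segments or libraries is only a short name for the DR and SH together. Each segment had 3 replicate libraries, which the study's methods call independent biological replicates, and each RNA sample pooled many organs. In such bulk samples fewer cells of a type and less RNA per cell cannot be told apart.

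Library totals were 20065804 to 26609187 counts in the RT, 22767230 to 24727459 in the DR and 25305258 to 27376687 in the SH. The top 10 transcripts by count took 3.74% to 5.69% of the counts in RT libraries, 4.5% to 4.67% in DR libraries and 10.4% to 11.9% in SH libraries. The transcripts that the study's text numbers were examined as a check of the segment labels. CriWUL (transcript86941), a WUS clade homeobox gene, had 2.71 to 4.68 CPM in the RT, against 0.202 to 0.448 in the DR and 0.0395 to 0.183 in the SH, so it was highest in every RT library. CriWOXB (transcript86378), another WOX gene, had 2.5 to 6.98 CPM in the RT, 25.7 to 50.5 in the DR and 0.711 to 1.02 in the SH. CriWOXA (transcript45206), of the WOX9 clade, had 1.84 to 7.05 CPM in the RT, 0.162 to 0.611 in the DR and 1.23 to 2.31 in the SH, and none of these 3 was a member. The SH label had no numbered marker to check it. The count table does not pair transcript numbers with genes, and 0 of its identifiers matched the reference gene table, so the members are given by number and without a function.

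The 153 members were a small set among the transcripts that both mature segments held. In all, 14128 transcripts (48.8%) averaged at least 5 CPM in DR and SH alike, and the members were 1.08% of these. In 84.2% of the 14128 the lowest DR or SH library lay under the highest RT library, and their median score was 0.520. The members had a median score of 6.13, with quartiles of 4.85 and 8.70, and 30 reached a score of 10. A further 108 transcripts past the same level limit had scores from 3 to under 4, so the members are the upper end of a continuous range. A further 17 transcripts had a score of at least 4 and missed the limit of 5 CPM in a mature segment.

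**Figure D1:**
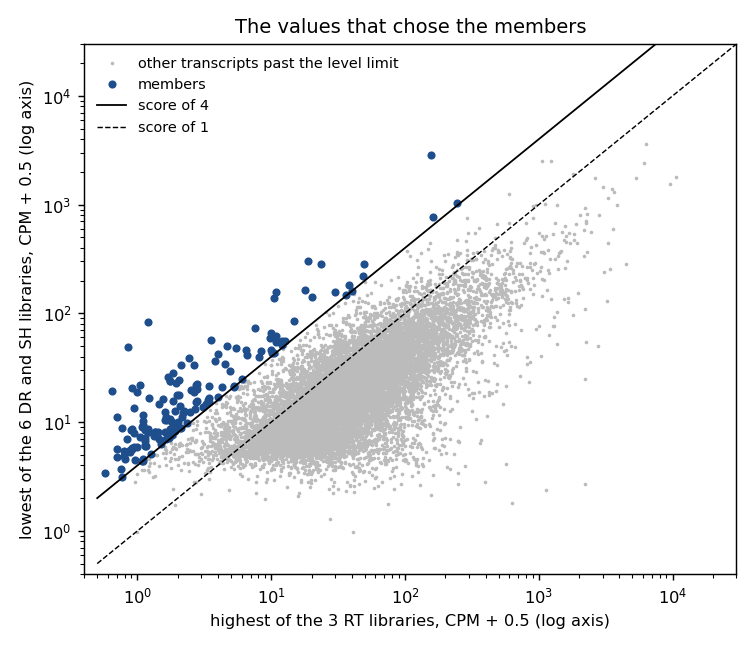
Each point is a transcript that averaged at least 5 CPM in DR and SH alike, with its highest RT library on the horizontal axis and its lowest DR or SH library on the vertical axis, both as CPM + 0.5 on log axes. The 153 members lie on or above the solid line at a score of 4, and 84.2% of the 14128 transcripts lie under the dashed line at a score of 1.

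Summed over the members, RT libraries held 0.0937% ± 0.0168 of their counts, DR libraries 1.6% ± 0.191 and SH libraries 2.16% ± 0.0562 (SD, n = 3 each). The RT libraries ranged from 0.0744% to 0.104%, the DR libraries from 1.43% to 1.81% and the SH libraries from 2.10% to 2.21%. No RT library came near a DR or SH library in this sum, and every DR library lay below every SH library. The sum rested on few transcripts: transcript124941 alone gave 22.6% of the members' CPM in the mature segments, and the top 10 members gave 55.6%. Without transcript124941 the sums were 0.0815% ± 0.0117 for RT, 1.25% ± 0.163 for DR and 1.66% ± 0.109 for SH libraries.

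A typical member was moderately expressed in the DR and SH and scarce in the tip. The median of the members' segment means was 0.933 CPM in the RT, 27.9 CPM in the DR and 26.4 CPM in the SH. Over the DR and SH libraries together, 139 members averaged at least 10 CPM and 33 at least 100 CPM. The lower of the DR and SH means was under 10 CPM for 35 members, and its lowest value was 5.14 CPM. In the RT, 55 members stayed under 1 CPM in every library, while 21 exceeded 10 CPM in at least 1 library. No member was at 0 in all RT libraries, and 8 were at 0 in at least 1. The RT mean was a median of 5.91% of the lower of the DR and SH means, and ranged from 0.326% to 20.1%.

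**Figure D2:**
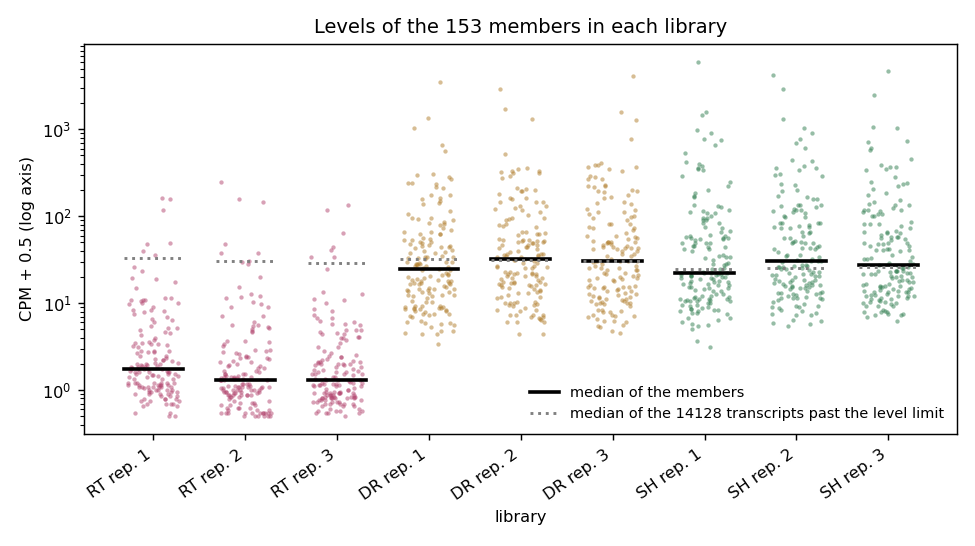
Each point is 1 of the 153 members in 1 library, as CPM + 0.5 on a log axis, with the members' median as a black bar and the median of the 14128 transcripts past the level limit as a dotted grey bar. The members' medians were 0.789 to 1.25 CPM in the RT libraries, 24.5 to 31.4 CPM in the DR libraries and 21.9 to 30.0 CPM in the SH libraries, whereas the grey bars lie within 23.9 to 32.4 CPM in all 9 libraries.

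The largest scores were those of transcript110310 and transcript124171. In RT replicates 1 to 3 transcript110310 had 0.698, 0.0417 and 0.263 CPM, from 14, 1 and 7 counts, against 93.7, 315 and 383 CPM in the DR and 82.5, 111 and 114 CPM in the SH. Its score of 69.3 was set by SH replicate 1 and RT replicate 1. The values of transcript124171 were 0.349, 0.0417 and 0.301 CPM in the RT, 61.3, 147 and 196 CPM in the DR, and 49.0, 71.8 and 85.4 CPM in the SH (score 58.3). In both transcripts DR replicate 1 was far below the other DR libraries, and the DR and SH libraries overlapped.

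The most abundant members were not the most extreme ones. Transcript124941 had 157, 145 and 63.1 CPM in the RT, against 3537, 2873 and 4139.8 CPM in the DR and 5997, 4245 and 4676 CPM in the SH, a score of 18.3. Transcript110430 had 117, 245 and 134 CPM in the RT, against 1029.6, 1309 and 1286 CPM in the DR and 1586, 2918 and 2493 CPM in the SH, and its score of 4.2 was close to the limit. The RT means of both lay above the median DR mean of the members, 27.9 CPM.

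At the limit itself, transcript54547 and transcript127242 were the last members taken. Transcript54547 (score 4.01) had 39.5, 30.4 and 33.5 CPM in the RT, 176, 179 and 159.8 CPM in the DR, and 202, 230.1 and 207 CPM in the SH. Transcript127242 (score 4.02) had 0.598, 0.376 and 0.113 CPM in the RT, 11.6, 3.91 and 4.22 CPM in the DR, and 56.0, 12.7 and 15.7 CPM in the SH, so the same score covered a stable abundant transcript and a variable scarce one. Just outside were transcript35583 (score 3.99) and transcript114092 (score 3.98). Transcript35583 had 1.59, 0.751 and 1.28 CPM in the RT, 8.61, 8.96 and 9.27 CPM in the DR, and 8.58, 7.85 and 8.21 CPM in the SH. Transcript114092 had 12.2, 9.73 and 9.51 CPM in the RT, 50.2, 49.9 and 50.5 CPM in the DR, and 97.0, 77.8 and 84.2 CPM in the SH.

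Whether the low level in the tip recurs in libraries that were not used for the choice was examined by holding out 1 replicate number at a time. The rule was applied to the other 6 libraries without the limit of 200 members, and the ratio of the lower of DR and SH to RT, with 0.5 CPM added to each, was then read in the held-out libraries alone. With replicate 3 held out, 170 of 179 chosen transcripts (95%) had a held-out ratio of at least 4, against a background of 3.69% of all transcripts past the level limit. With replicate 2 held out, 173 of 190 (91.1%) reached it, against 3.04%. With replicate 1 held out, 177 of 335 (52.8%) reached it, against 2.19%. Only that choice exceeded 200 transcripts, and among the 200 with the largest scores 132 (66%) reached it. The median held-out ratios were 10.6, 10.1 and 4.24 for replicates 3, 2 and 1, against 0.749, 0.682 and 0.626 over all transcripts past the level limit. In replicates 3 and 2 all chosen transcripts had a ratio above 1, and in replicate 1 this held for 308 of 335. The labels do not say whether replicate numbers pair libraries across segments, so a held-out set was treated as 1 library of each segment.

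**Figure D3:**
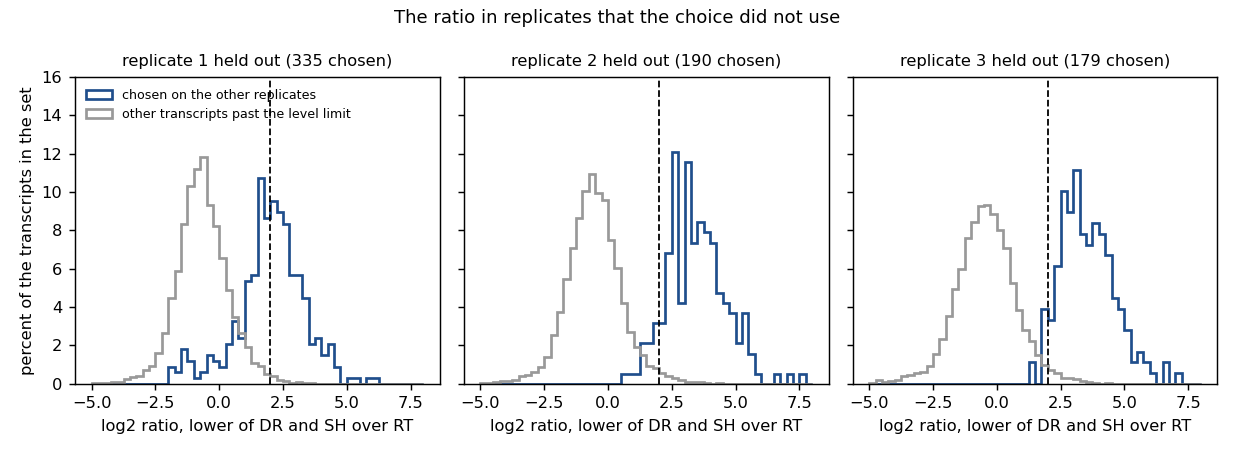
Histograms of the log2 ratio of the lower of the DR and SH libraries over the RT library in the held-out replicate, for transcripts chosen on the other replicates (blue) and for the other transcripts past the level limit (grey), as percent of each set. The dashed line marks a ratio of 4, which 52.8%, 91.1% and 95% of the chosen transcripts reached in replicates 1, 2 and 3.

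The replicate 1 libraries stood apart for the members. RT replicate 1 was the highest RT library for 97 members (63.4%), against 49.2% of the transcripts past the level limit. DR replicate 1 was the lowest DR library for 94 members (61.4%), against 38.2%, and SH replicate 1 was the lowest SH library for 96 members (62.7%), against 48.5%. The lowest of the 6 mature libraries, which the score uses, was DR replicate 1 for 55 members and SH replicate 1 for 48. With TMM scaling (edgeR's trimmed mean of M-values) RT replicate 1 was the highest RT library for 77 members (50.3%), against 22.7% of the transcripts past the level limit. On that scale DR replicate 1 was the lowest DR library for 94 members (61.4%), against 39.0%, and SH replicate 1 was the lowest SH library for 77 (50.3%), against 29.0%. Before the limit of 200, the rule took 244 transcripts, all 153 members included, when RT replicate 1 was left out, and 185 when DR replicate 1 was left out, among them 151 members. What sets these libraries apart was not tested. Members also varied more between libraries of a segment than the 14128 transcripts did. The median ratio of the highest to the lowest library, after adding 0.5 CPM, was 1.65 for the members against 1.34 in the RT. It was 1.6 against 1.25 in the DR, and 1.41 against 1.21 in the SH. The RT ratios compare unlike levels, with library medians of 0.789 to 1.25 CPM for the members against 28.2 to 32.4 CPM. Sampling noise at low counts was not separated from this difference.

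The rule asks for a level in both mature segments and not for their order, and the DR was compared with the SH by a test. The score takes the lowest of the mature libraries in CPM, so the rule still bears on the balance of DR and SH. The test thus reuses values that chose the members. Its counts describe the members and are not independent support for a lean to either segment. The quasi-likelihood test of edgeR was run on TMM-scaled counts of the 9 libraries together, and p-values were adjusted by Benjamini-Hochberg over all 28952 transcripts. At an adjusted p of at most 0.05, 26 members (17.0%) were higher in the DR and 66 (43.1%) were lower in the DR, relative to the SH. Among all transcripts 27.0% were higher and 30.8% lower, and among the 14128 past the level limit 25.0% were higher and 34.1% lower. With a log2 fold change of at least 2 as well, 9 of the 153 members were higher and 23 of the 153 lower in the DR. The background for these counts was 12.5% higher and 11.3% lower over all transcripts, and 3.69% and 7.29% over those past the level limit. The members' median log2 fold change, DR over SH, was -0.43, beside -0.08 over all transcripts and -0.12 over those past the level limit.

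The lean of the members towards the SH depended on the scale on which they were chosen. The TMM factors were 1.09 to 1.10 in the DR and 0.773 to 0.853 in the SH, and scaling by library size alone moved the median of all transcripts by 0.41. On that scale 35 members were higher and 48 lower in the DR, against 38.4% and 21.0% of all transcripts, and the members' median was -0.02 beside 0.33 over all. The members were chosen on this scale, so their place below all transcripts there does not count as separate support for a lean. When the rule itself was applied to TMM-scaled CPM it took 201 transcripts before the limit of 200, 146 of the members among them. Of these 201, 25.4% were higher and 30.8% lower in the DR, close to the background, with a median of -0.01. The excess of transcripts lower in the DR was thus present for the set chosen by library-size CPM and not for the set chosen after TMM scaling. In CPM, the 3 DR libraries lay above the 3 SH libraries for 35 of the 153 members (44.7% of all transcripts did so). They lay below them for 56 of the 153 (25.7% of all transcripts did so), and the libraries of both segments overlapped for 62. After TMM scaling the DR libraries lay above for 28 members (32.1% of all transcripts did so) and below for 71 (36.9% did so), and 54 overlapped.

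**Figure D4:**
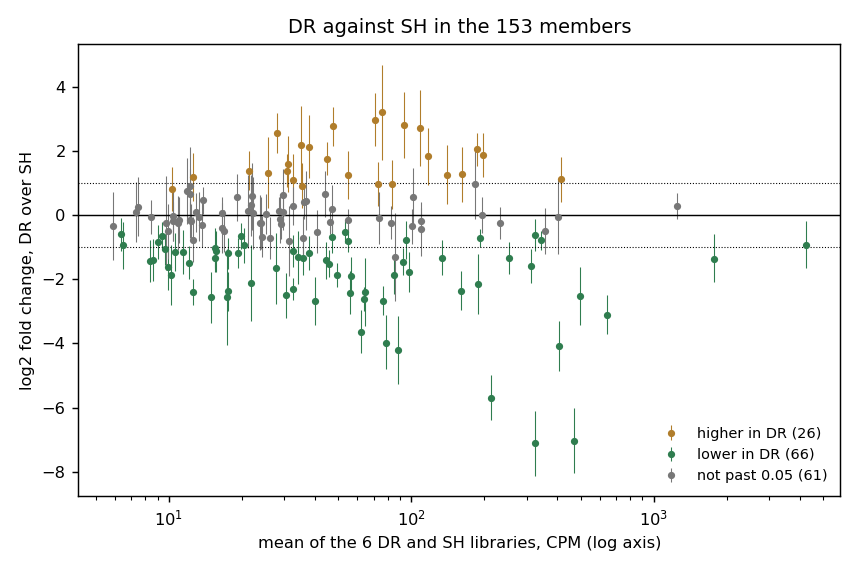
The fitted log2 fold change, DR over SH, of each member with its 95% interval, against its mean over the DR and SH libraries in CPM on a log axis. The 26 members higher in the DR reach 3.21 and the 66 lower in the DR reach -7.12, with the dotted lines at a difference of 2-fold.

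By segment means in CPM, 85 members (55.6%) had DR and SH within 2-fold, against 65.5% of the transcripts past the level limit. Few members could be called equal within 2-fold by their intervals. The 95% interval of the log2 fold change lay inside -1 to 1 for 29 members (19.0%), against 47.2% of the transcripts past the level limit. The members' standard errors were also larger, with a median of 0.30 against 0.18. Of the 61 members that did not pass the test, 28 had such an interval and 33 did not, and for these 33 neither a difference nor a level within 2-fold could be shown at this depth and replication. The even members included transcript112218, with 17.2, 6.6 and 10.5 CPM in the RT, 213, 194 and 266 CPM in the DR, and 165, 166 and 177 CPM in the SH. Its interval ran from -0.56 to 0.56. For transcript54593, with 1.40, 0.877 and 0.301 CPM in the RT, 12.0, 9.0 and 14.5 CPM in the DR and 7.71, 9.90 and 9.5 CPM in the SH, the interval ran from -0.79 to 0.75. For both transcripts, the RT libraries lay far below 6 libraries that were close to each other.

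A small number of members differed widely between the mature segments. The largest differences in favour of the DR were those of transcript42518 and transcript53212, the 2 members whose DR mean exceeded 10 times the SH mean. Transcript53212 had 0.199, 0.167 and 0 CPM in the RT, 78.3, 121 and 190.0 CPM in the DR, and 10.6, 12.2 and 14.3 CPM in the SH (log2 fold change 2.98, standard error 0.37, adjusted p = 9.24e-05 by edgeR). Its segments did not overlap. Transcript42518 had 1.26, 0.584 and 0.756 CPM in the RT, 26.2, 124 and 271 CPM in the DR, and 8.14, 13.2 and 13.1 CPM in the SH (log2 fold change 3.21, standard error 0.66, adjusted p = 0.00229 by edgeR), and its DR libraries spanned a ratio of 10.2 after 0.5 CPM was added. Leaving out DR replicate 3 gave a log2 fold change of 2.30, and leaving out DR replicate 1 gave 3.71.

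In favour of the SH, 6 members had an SH mean over 10 times the DR mean, and the largest differences were those of transcript117878 and transcript72816. Transcript117878 had 0.0498, 0.0417 and 0.0752 CPM in the RT, from 1, 1 and 2 counts, against 2.87, 5.50 and 10.1 CPM in the DR and 652, 690.0 and 577 CPM in the SH (log2 fold change, DR over SH, -7.12, standard error 0.45, adjusted p = 2.68e-06 by edgeR). Transcript72816 had 0.698, 0.376 and 0.338 CPM in the RT, 11.1, 7.61 and 10.4 CPM in the DR, and 1476, 616 and 706 CPM in the SH (log2 fold change -7.03, standard error 0.45, adjusted p = 2.88e-06 by edgeR). The DR mean of transcript117878 was 6.14 ± 3.64 CPM and its SH mean 639.7 ± 57.7 CPM (SD, n = 3 each), so it met the limit of 5 CPM in the DR only narrowly.

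The 4 abundant or extreme members described first were tested in the same fit. Transcript110430 was lower in the DR (log2 fold change -1.35, standard error 0.33, adjusted p = 0.00627 by edgeR). Transcript124941 was also lower in the DR (log2 fold change -0.92, standard error 0.33, adjusted p = 0.0365 by edgeR), a call that was lost under 8 of 19 alternatives, with adjusted p from 0.0139 to 0.209. Among these were the fits without DR replicate 1, 2 or 3 (0.0712, 0.13 and 0.0502) and without SH replicate 1 or 3 (0.124 and 0.0574). Transcript110310 (0.96, adjusted p = 0.114 by edgeR) and transcript124171 (0.57, adjusted p = 0.244 by edgeR) did not pass. Both passed without DR replicate 1, at 1.37 (adjusted p = 0.00508 by edgeR) and 0.92 (adjusted p = 0.0203 by edgeR). Over all their alternatives adjusted p ranged from 0.00508 to 0.339 and from 0.0203 to 0.704. Of the members at the score limit, transcript127242 (-2.55, adjusted p = 0.0086 by edgeR) and transcript54547 (-0.72, adjusted p = 0.000806 by edgeR) were lower in the DR. The log2 fold change of transcript127242 was -1.48 without SH replicate 1 and -3.25 without DR replicate 1.

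**Figure D5:**
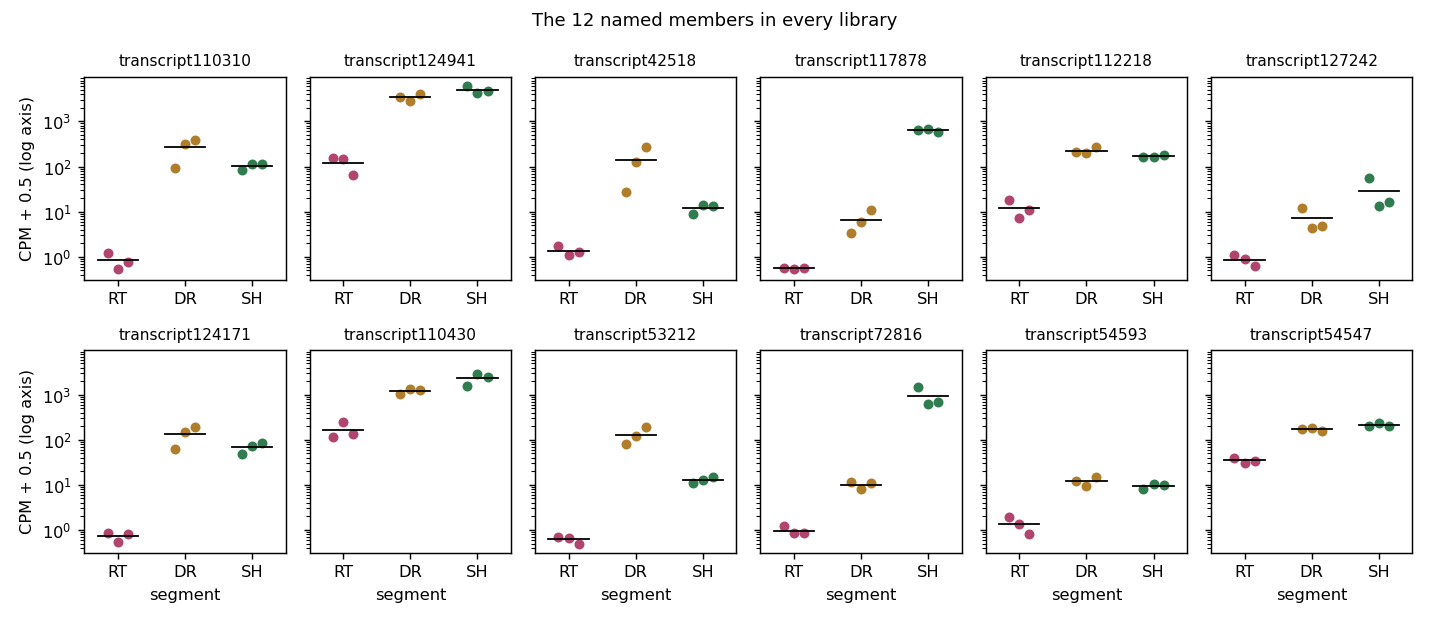
The 12 named members in every library, as CPM + 0.5 on a log axis, with a bar at the mean of each segment. The RT points lie below all DR and SH points in every panel, and the DR and SH points are close in transcript112218 and transcript54593 and far apart in transcript117878 and transcript72816.

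Other properties of the members were not used by the rule. A value that is not a whole number shows that the quantifier divided reads among transcripts of similar sequence. Of the members, 70 (45.8%) had such a value in at least 1 library, against 36.3% of all transcripts and 36.7% of those past the level limit. For these members the level is shared with a similar transcript to an extent that the table does not show. Assembly numbers that follow each other can belong to related contigs. There were 104 members with a consecutively numbered transcript in the table, as 64.8% of all transcripts had. In 3 pairs both transcripts were members, transcript124171 with transcript124172, transcript73865 with transcript73866, and transcript140518 with transcript140519, which were named after their values were seen. Transcript124172 had means of 0.907 CPM in the RT, 194 CPM in the DR and 41.0 CPM in the SH, and its DR over SH log2 fold change of 1.84 compares with 0.57 for transcript124171. Means in the second pair were 1.64 and 2.68 CPM in the RT, 25.6 and 39.5 CPM in the DR, and 22.5 and 42.1 CPM in the SH. Means in the third were 0.977 and 0.508 CPM in the RT, 25.3 and 15.0 CPM in the DR, and 17.3 and 11.7 CPM in the SH. Of 75 such neighbours that were past the level limit and were not members, 57 had a score below 1, and the median score of the 75 was 0.578. Over all transcripts past the level limit these values were 84.2% and 0.520. Scores of at least 2 were held by 6 of the 75, the highest being 3.85, and no matching share over all transcripts was computed. The number of pairs was not compared with chance.

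The same rule was applied with each of the other segments as the low one, before any limit on the number. It took 53 transcripts with the DR as the low segment and 384 with the SH as the low segment, against the 153 with the RT. On TMM-scaled CPM the numbers were 100 for the DR, 276 for the SH and 201 for the RT, in the same order. These numbers are a description and were not tested against each other.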

How the data were processed

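Paired-end TruSeq RNA v2 libraries, which do not keep strand, were made from 3 replicates of each of 3 segments. The authors trimmed the reads (Trimmomatic 0.32), assembled a transcriptome de novo (Trinity, CD-HIT, Compacta), quantified it with kallisto 0.44.0, imported it with tximport and removed low counts with edgeR. The deposited table holds estimated counts per transcript, although its name says TPM: library totals differ, and per library 16.0% to 18.1% of entries were not whole numbers (tolerance 0.001).

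CPM used the column sums. For tests the estimated counts were rounded, scaled by TMM and fitted with edgeR 4.0.16 in R 4.3.3 (prior count 0.125, 1 coefficient per segment, contrast DR minus SH, Benjamini-Hochberg over all transcripts). Intervals are 95%, with a standard error taken from the log2 fold change and the F statistic. limma 3.58.1 (voom) and DESeq2 1.42.0 were alternatives. The fit was also run on simulated counts in which a small share of transcripts changed in the DR. That simulation held no broad shift between segments, so it does not check the dependence on scaling. All 153 members passed filterByExpr. No pair of replicates agreed within sampling noise (mean chi-square per transcript at least 19.1).

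Named members were the 2 with the largest score, the 2 most abundant, the 2 with the largest difference in each direction, the 2 nearest to 0 within 2-fold, and the 2 members with the lowest score, plus the 2 transcripts next outside. The members and lists were chosen with earlier results of these data known. Annotation, GO terms and sequences were not analysed here.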

Additional observations from a re-analysis of the deposited data

How the results depend on the processing

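The number of transcripts that met the rule, before the limit of 200, was 153 and moved to 261 with a score limit of 3, to 80 with a limit of 6, and to 375 when segment means replaced the extreme libraries. Leaving out single libraries gave 155 to 244, and the largest value was without RT replicate 1. The members' median log2 fold change, DR over SH, moved from -0.43 to -0.02 with library size alone, and ranged from -0.55 to -0.38 with single libraries left out. The counts of 26 members higher and 66 lower in the DR stayed within 1.5 times under all 19 alternatives. Leaving out single libraries gave 19 to 31 higher and 59 to 69 lower. No member called in either direction changed sign under any of them. Correlations of same-numbered deviations ran from -0.41 to 0.12, which showed no pairing of the libraries but cannot exclude one. With the replicate number as a block 22 members were higher and 62 lower, with a median of -0.50. The held-out share was 52.8% for replicate 1 (66% for the 200 largest scores, an alternative chosen after seeing the data), 91.1% for replicate 2 and 95% for replicate 3. The rule with the DR low took 53 transcripts and 100 after TMM scaling. The near-zero fold changes of transcript112218 and transcript54593 turned positive at 0.08 and 0.07 with RLE factors and with DESeq2, 0.41 and 0.39 with library size alone, 0.09 and 0.07 with only the DR and SH libraries, and 0.05 and 0.03 with upper-quartile factors. Leaving out single libraries gave -0.15 to 0.09 for transcript112218 and -0.20 to 0.14 for transcript54593. The call for transcript54547 was lost with library size alone (-0.31, adjusted p = 0.0684 by edgeR, lowest over its alternatives 2.22e-06), where that for transcript110310 was gained (1.37, adjusted p = 0.0429). The cause was not tested. RT levels under 1 CPM rest on few counts, which limits the precision of the score.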
